A study of Mus musculus with 10 samples.

Results

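The A-, B-, D- and E-type cyclins, which set the activity of the kinases of cell division, were followed across the juvenile mouse testis, with 10 genes listed by symbol: Ccna1, Ccna2, Ccnb1, Ccnb2, Ccnb3, Ccnd1, Ccnd2, Ccnd3, Ccne1 and Ccne2. Their probe sets were taken from both array designs of the study by gene symbol, with no measured value used in the choice. Of the 10, 9 had a probe set under their own symbol, among 18193 genes measured in all. Ccnb1 was not analysed here. The 9 genes had 21 probe sets, 18 on the first design and 3 on the second, and 18 of the 21 exceeded the signal floor in some group.

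Messenger RNA was measured on microarrays in 5 groups, all from C57BL/6 male mice for which the labels name no allele or treatment, in a study that searched for genes acting when chromosomes segregate in the first meiotic division. Fraction 2 of a Percoll density gradient from testes at day 8 was labelled spermatogonia. Fraction 5 at day 12 was labelled leptotene and zygotene spermatocytes, and fraction 8 at day 15 pachytene spermatocytes. Whole testis and a mixture of 11 somatic tissues (skin, muscle, brain, spleen, lung, kidney, liver, heart, intestine, stomach and colon) were both taken at day 15. Each group had 2 samples, but sample 1 was run on the first design and sample 2 on the second, so each probe set was read on 1 array per group. Density fractions are enriched for a stage and are not pure, and the labels do not say whether the samples of a group came from separate mice.

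Cyclins bind and activate the cyclin-dependent kinases, and each type serves its own part of the cell cycle. D-type cyclins act with Cdk4 and Cdk6 on the retinoblastoma proteins before DNA replication, E-type cyclins with Cdk2 at its start, A-type cyclins during and after it, and B-type cyclins with Cdk1 at division. In the testis, spermatogonia divide by mitosis, leptotene and zygotene spermatocytes have finished their last DNA replication and begin recombination, and pachytene spermatocytes pass a long prophase before the first meiotic division. Ccna1 is a germ cell form needed in male mice for that division, while Ccna2 serves dividing cells in general. Ccnb3 is known in the mouse as a cyclin of early meiotic prophase.

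Values are intensities scaled so that the arrays of a design share one trimmed mean, called scaled signals here. The floor, taken from chemosensory receptor genes, was 87.3 on the first design, from which all 9 cyclins were read. A difference of at least 4-fold (2 on the log2 scale) was called, and rose or fell is written only of called genes. The error of a log2 difference, from 100 probe sets placed on both designs, gave 95% limits of 0.35 for leptotene/zygotene against spermatogonia, 0.41 for pachytene against leptotene/zygotene and 0.46 for pachytene against spermatogonia. Higher and lower describe differences beyond that limit. This error compares the same probe sets on both designs, so it leaves out the spread between different probe sets of a gene. It was not estimated by signal level, and whether it is large enough for genes near the floor was not tested. Whether it includes the spread between mice is not known, and levels of different genes cannot be ranked on such arrays. In fractions and tissues, fewer cells of a type and less RNA per cell cannot be told apart.

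The fractions were checked against marker genes. Sums are over the markers read on the first design, and counts at the floor over the whole list. The summed signal of 10 of 11 pachytene markers was 1213 in spermatogonia (9 of the 11 at the floor), 4786 in leptotene/zygotene (Pgk2 at the floor) and 71801 in pachytene. The summed signal of 9 of 11 spermatogonial markers was 8101 in spermatogonia, 14122 in leptotene/zygotene (Zbtb16 at the floor) and 4239 in pachytene (Zbtb16 and Lin28a at the floor). This sum was thus not highest in the fraction labelled spermatogonia. Of the 11, 9 were higher in leptotene/zygotene than in spermatogonia. Zbtb16 (92.0 in spermatogonia, 78.7 in leptotene/zygotene) and Gfra1 (172 in spermatogonia, 168 in leptotene/zygotene) were not, and Ddx4 was highest in pachytene (2066). Transcripts of Sertoli cells, the somatic cells of the tubule, were abundant: 11 markers summed to 36830 in spermatogonia, 33248 in leptotene/zygotene, 8792 in pachytene (Amh at the floor), 24676 in whole testis (Sox9 and Amh at the floor) and 4779 in the somatic mix (6 at the floor). The 4 of 6 Leydig cell markers with a probe set summed to 7725 in spermatogonia, 4049 in leptotene/zygotene, 401 in pachytene (Cyp11a1 at the floor), 2871 in whole testis and 307 in the somatic mix (Cyp17a1 and Cyp11a1 at the floor). Whole testis had the highest ratios of 3′ to 5′ signal, a measure that is higher where RNA is less intact. The Gapdh signal from the 3′ end over that from the 5′ end was 1.11 in spermatogonia, 1.07 in leptotene/zygotene, 1.49 in pachytene, 4.33 in whole testis and 1.21 in the somatic mix on the first design. That of beta-actin was 3.33 in spermatogonia, 3.18 in leptotene/zygotene, 2.41 in pachytene, 5.22 in whole testis and 1.88 in the somatic mix, so that pachytene lay below both earlier fractions for beta-actin and above them for Gapdh.

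Promoter windows of 3 genes are shown because they belong to the cyclins with the highest signal in pachytene (Ccna1 and Ccnb2) and to the one seen above the floor in leptotene/zygotene alone (Ccnb3). Each holds 250 bases before and 50 after the RefSeq start on GRCm38.p6, read 5′ to 3′ on the gene's strand. The windows are chr3:55055006-55055305 (minus strand) for Ccna1, chr9:70421505-70421804 (minus strand) for Ccnb2 and chrX:7041570-7041869 (minus strand) for Ccnb3. Capitals mark CCAAT boxes (CCAAT), cell cycle homology regions (CHR, TTTGAA), MYB sites (CAACNG or TAACNG) and an E2F site (TTTGGCG or TTTCGCG or TTTCCCG or TTTGCCG), each searched on both strands.
Ccna1: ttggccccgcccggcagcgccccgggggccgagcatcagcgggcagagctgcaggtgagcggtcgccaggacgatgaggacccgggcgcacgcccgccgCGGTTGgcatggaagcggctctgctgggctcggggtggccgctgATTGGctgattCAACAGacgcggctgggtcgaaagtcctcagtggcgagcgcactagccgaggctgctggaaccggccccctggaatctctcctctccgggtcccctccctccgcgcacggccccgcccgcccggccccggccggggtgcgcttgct
Ccnb2: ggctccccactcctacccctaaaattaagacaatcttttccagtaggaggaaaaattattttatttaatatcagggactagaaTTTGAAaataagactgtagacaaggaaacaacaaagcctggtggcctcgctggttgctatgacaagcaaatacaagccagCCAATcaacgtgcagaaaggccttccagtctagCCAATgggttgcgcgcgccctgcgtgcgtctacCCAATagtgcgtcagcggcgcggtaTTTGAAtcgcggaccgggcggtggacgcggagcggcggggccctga
Ccnb3: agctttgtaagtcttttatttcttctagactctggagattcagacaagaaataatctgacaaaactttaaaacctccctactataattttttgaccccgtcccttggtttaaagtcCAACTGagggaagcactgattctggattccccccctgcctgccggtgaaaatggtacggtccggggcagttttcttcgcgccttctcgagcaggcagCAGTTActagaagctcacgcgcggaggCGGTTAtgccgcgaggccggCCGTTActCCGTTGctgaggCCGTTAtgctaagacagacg

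Ccna1 held 1 CCAAT box, 107 bases before the start, and 2 MYB sites, 151 and 96 bases before it. Ccnb2 held 3 CCAAT boxes, 87, 54 and 21 bases before the start, and 2 CHR elements, one 167 bases before it and one beginning at base 5 after it, with no MYB site. Ccnb3 held 6 MYB sites and neither a CCAAT box nor a CHR element. None of the 3 windows held the E2F site. Over all 32851 windows of this length, 37.4% held a CCAAT box, 17.9% a CHR element, 49.7% a MYB site and 6.70% the E2F site, and no overlap between motifs occurred in the 3 windows shown. Windows were found for 6 of the 10 genes by symbol. A match is a description of the letters and not of a bound site.

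The 9 measured cyclins divided by the germ cell fraction in which their signal was highest. Ccnd2 and Ccnd3 were highest in spermatogonia. Ccna2, Ccnb3, Ccnd1, Ccne1 and Ccne2 were highest in leptotene/zygotene, and Ccna1 and Ccnb2 in pachytene. For Ccne1, pachytene lay within the error limit of leptotene/zygotene (-0.17). The other Ccna2 probe set was highest in spermatogonia (472, with 430 in leptotene/zygotene). The second-design Ccnd3 probe set was highest in leptotene/zygotene (133, with 103 in spermatogonia). Of 13993 genes above the floor in some fraction, 34.5% were highest in spermatogonia, 28.5% in leptotene/zygotene and 37.0% in pachytene.

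**Figure D1:**
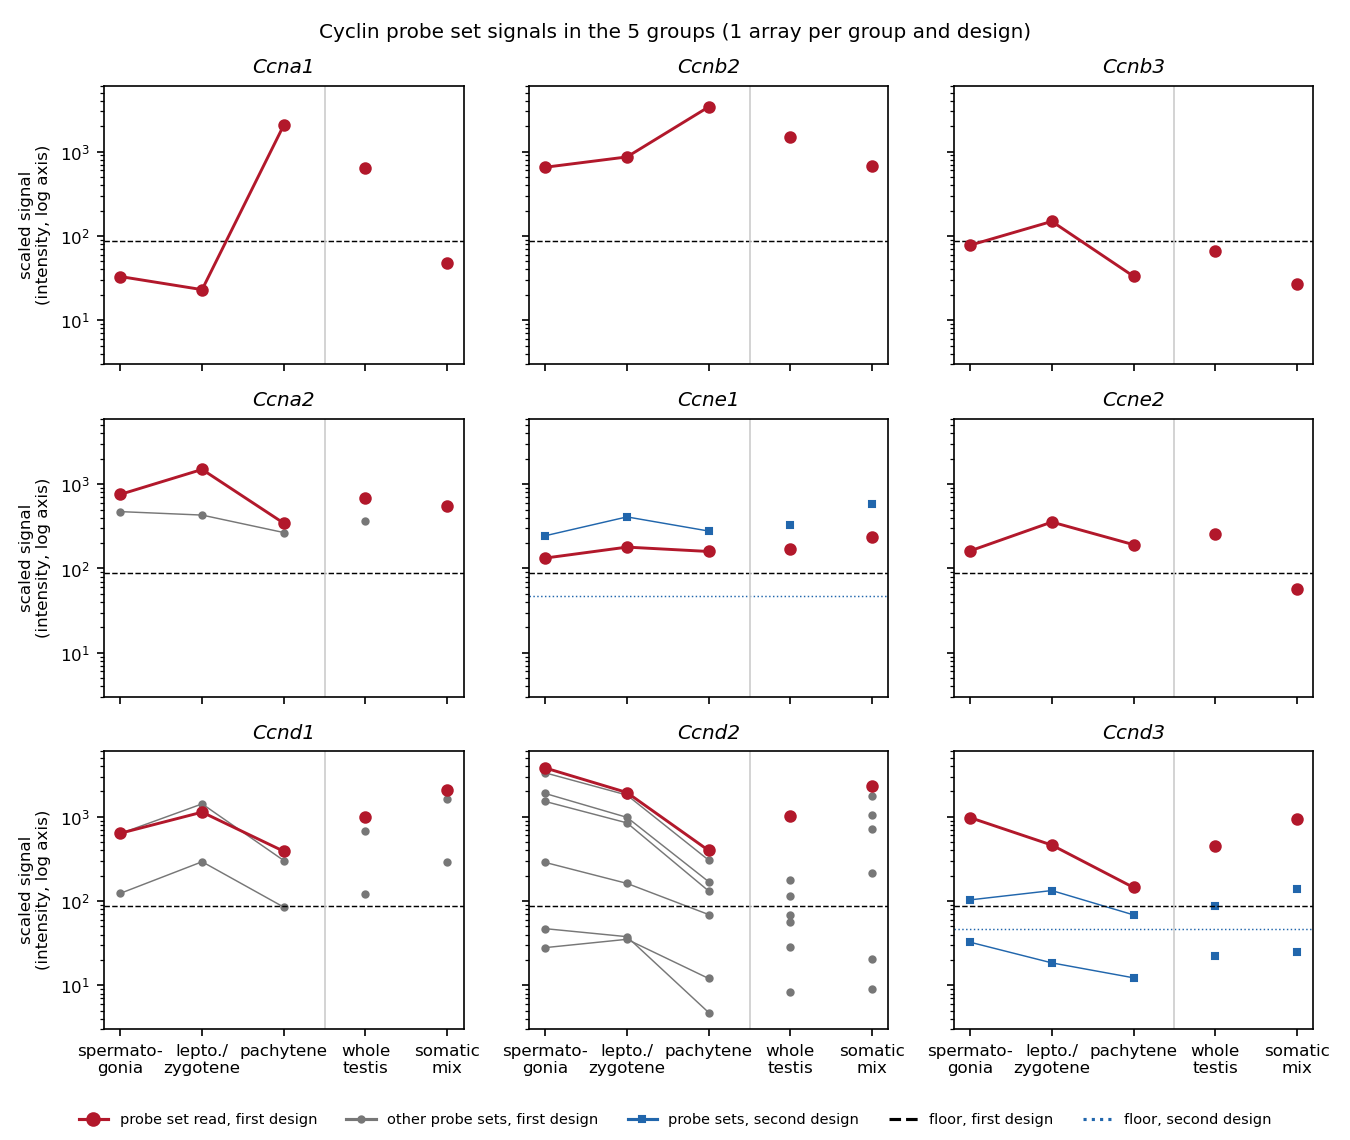
Scaled signal (log axis) of all 21 cyclin probe sets in the 3 germ cell fractions, whole testis and the somatic mix, with 1 array per group and design and the floors as broken lines. Ccna1 lay under the floor of 87.3 in spermatogonia and leptotene/zygotene and reached 2062 in pachytene, while the bright Ccnd2 probe sets were lowest among the fractions in pachytene.

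Among the A- and B-type cyclins, Ccna1 showed the widest range. Its signal was 32.9 in spermatogonia, 23.0 in leptotene/zygotene, 2062 in pachytene, 637 in whole testis and 48.3 in the somatic mix. It was thus below the floor in both earlier fractions and in the somatic mix, and above it in pachytene and whole testis. In pachytene it rose by at least 23.6-fold against leptotene/zygotene, a log2 difference of at least 4.56, and by the same bound against spermatogonia. With the floor set at the 60th percentile of signals, the bound was 3.20 on the log2 scale.

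Ccnb2, a Cdk1 partner at division, was measured in every group. Its signal was 652 in spermatogonia, 865 in leptotene/zygotene, 3390 in pachytene, 1481 in whole testis and 681 in the somatic mix. Pachytene stood above all other groups and whole testis came next. Against spermatogonia it rose in pachytene by 5.20-fold (log2 2.38). Against leptotene/zygotene it was 3.92-fold higher, a log2 difference of 1.97 that missed the threshold, and it passed under median scaling (2.34) and under scaling to the shared probe sets (2.39). Leptotene/zygotene against spermatogonia gave 0.41, just beyond the error limit.

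Ccnb3, on the X chromosome, was near the floor throughout. Its signal was 77.6 in spermatogonia, 149 in leptotene/zygotene, 33.2 in pachytene, 66.2 in whole testis and 26.9 in the somatic mix, so only leptotene/zygotene exceeded the floor. It was at least 1.70-fold higher there than in spermatogonia, and pachytene was at least 1.70-fold lower than leptotene/zygotene. Neither bound reached the threshold. With the floor at the 60th percentile Ccnb3 lay at the floor in all groups and gave no difference.

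Ccna2 went the other way from Ccna1 in pachytene. The brighter of its probe sets, from which it was read, had a signal of 757 in spermatogonia, 1496 in leptotene/zygotene, 344 in pachytene, 676 in whole testis and 547 in the somatic mix. Leptotene/zygotene was the highest group and pachytene the lowest. Ccna2 fell in pachytene by 4.34-fold against leptotene/zygotene (log2 difference -2.12), and the difference was -1.14 against spermatogonia. Its other probe set had 472 in spermatogonia, 430 in leptotene/zygotene, 267 in pachytene, 362 in whole testis and 552 in the somatic mix. That probe set was also lower in pachytene, by a log2 difference of -0.69 against leptotene/zygotene, but gave -0.14 for leptotene/zygotene against spermatogonia, where the first gave 0.98. The call did not hold with quantile normalization (-1.81), median scaling (-1.75), scaling to the shared probe sets (-1.70), the log2 of signal plus floor (-1.88) or the mean of both probe sets (-1.40).

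Neither E-type cyclin, which act with Cdk2 as DNA replication starts, was called between the fractions. Ccne2 had a signal of 162 in spermatogonia, 355 in leptotene/zygotene, 192 in pachytene, 256 in whole testis and 56.9 in the somatic mix, which was below the floor. It was 2.20-fold higher in leptotene/zygotene than in spermatogonia (log2 1.14) and lower in pachytene than in leptotene/zygotene (-0.89). Pachytene and spermatogonia lay within the error limit of each other, at 0.25. Both pachytene differences of Ccne2 depended on the scaling. With quantile normalization pachytene against spermatogonia was 0.72, beyond its error limit. Pachytene against leptotene/zygotene was then -0.32, within its limit. Over the settings the first ranged from 0.081 to 0.72 and the second from -1.23 to -0.32.

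Ccne1 had a signal of 133 in spermatogonia, 179 in leptotene/zygotene, 159 in pachytene, 169 in whole testis and 239 in the somatic mix. These signals spanned 1.80-fold over the 5 groups. It was higher in leptotene/zygotene than in spermatogonia (0.43), while pachytene against leptotene/zygotene (-0.17) lay within the limit. The sign of that last difference turned under quantile normalization (0.33), median scaling (0.20) and scaling to the shared probe sets (0.25). On the second design its probe set had 245 in spermatogonia, 409 in leptotene/zygotene, 278 in pachytene, 328 in whole testis and 585 in the somatic mix. Leptotene/zygotene was the highest of the fractions and the somatic mix the highest group on both designs.

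Read from their brightest probe sets, the D-type cyclins were each lowest in pachytene. Ccnd2 had 7 probe sets, 5 of them above the floor somewhere, and the brightest, from which it was read, had a signal of 3789 in spermatogonia, 1936 in leptotene/zygotene, 398 in pachytene, 1020 in whole testis and 2347 in the somatic mix. The signal was lower at each later fraction. Ccnd2 fell in pachytene by 9.53-fold against spermatogonia (log2 difference -3.25) and by 4.87-fold against leptotene/zygotene (-2.28). The other probe sets above the floor also gave lower values in pachytene against leptotene/zygotene, at -2.56, -2.54 and -2.68, and for the 1 that reached the floor, at least 1.85-fold lower. The call against leptotene/zygotene did not hold with median scaling (-1.91), scaling to the shared probe sets (-1.86) or the mean over all 7 probe sets (-1.57). That mean includes the probe sets below the floor in all groups, which enter it with a difference of 0.

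Ccnd3 had a signal of 976 in spermatogonia, 461 in leptotene/zygotene, 145 in pachytene, 449 in whole testis and 946 in the somatic mix. As with Ccnd2, each later fraction was lower. It fell in pachytene by 6.74-fold against spermatogonia (-2.75) and was lower by 3.18-fold against leptotene/zygotene (-1.67), short of the threshold. With the values as deposited the last difference was -2.01 and passed. A probe set on the second design had 103 in spermatogonia, 133 in leptotene/zygotene, 68.5 in pachytene, 86.7 in whole testis and 139 in the somatic mix. It too was lowest in pachytene, by a log2 difference of -0.59 against spermatogonia. However, it was higher in leptotene/zygotene than in spermatogonia (0.37), opposite to the first design (-1.08). The third Ccnd3 probe set stayed below the floor of its design, 47.0, in all groups.

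Ccnd1 was highest among the fractions in leptotene/zygotene. Its signal was 637 in spermatogonia, 1133 in leptotene/zygotene, 389 in pachytene, 990 in whole testis and 2061 in the somatic mix. Leptotene/zygotene was 1.78-fold higher than spermatogonia (0.83), and its other probe sets gave 1.24 and 1.17. Pachytene was 2.91-fold lower than leptotene/zygotene (-1.54), with -2.23 and at least 3.35-fold lower from the other probe sets. The difference in pachytene against spermatogonia was -0.71.

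**Figure D2:**
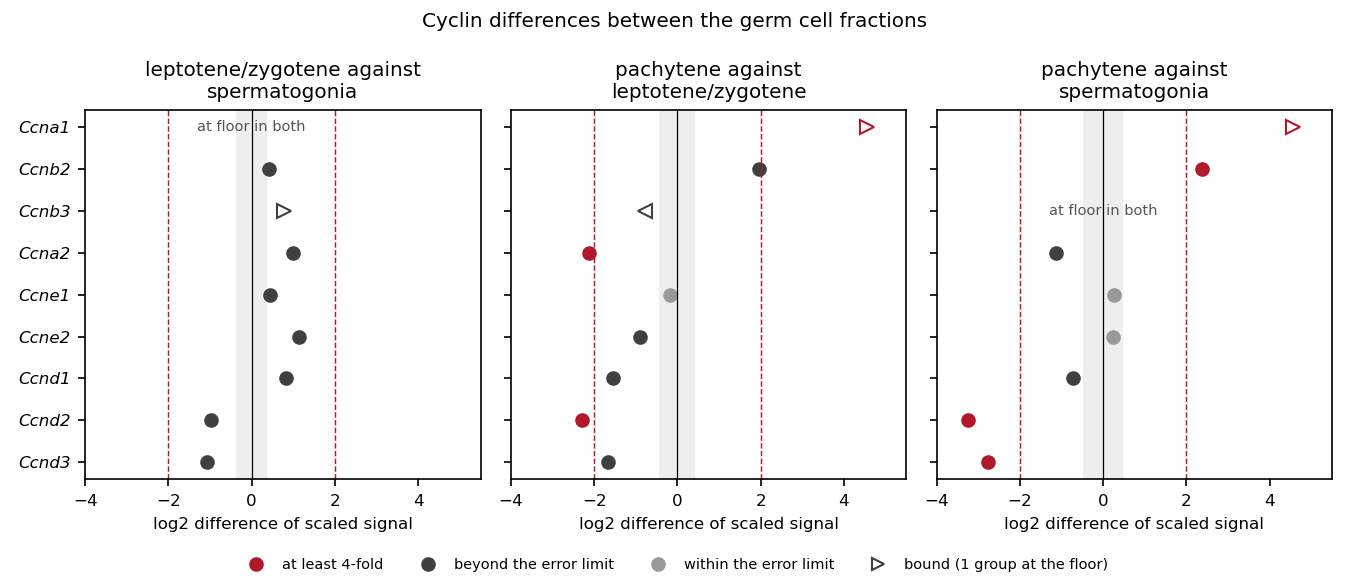
Log2 differences of the 9 cyclins between germ cell fractions. Red marks at least 4-fold, the grey band is the 95% error limit, and open triangles are bounds against the floor. Ccna1 and Ccnb2 lie to the right in pachytene against spermatogonia, and Ccnd2 and Ccnd3 to the left.

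In leptotene/zygotene against spermatogonia, 8 cyclins were measured and none was called, where 0.588% of 12919 genes were (0.310% higher and 0.279% lower). Of the 8, 6 were higher and 2 lower beyond the limit, where 24.1% of all genes were higher and 22.2% lower, and the median was 0.60 against 0.02 over all genes. The directions of Ccna2 and Ccnd3 rested on the probe set, as the other Ccna2 probe set gave -0.14 and the second-design Ccnd3 one 0.37. Other probe sets of Ccnd1, Ccnd2 and Ccne1 above the floor agreed in sign. Spermatogonial markers were higher in leptotene/zygotene as well (9 of 11, median 0.66), as were 10 of 10 pachytene markers (median 1.14) and 4 of 5 macrophage and blood markers (median 0.56). Stromal markers (7 of 8, median -0.96) and Leydig markers (4 of 4, median -0.77) were lower, as were Ccnd2 (-0.97) and Ccnd3 (-1.08), while of 11 Sertoli markers 1 was higher and 2 lower. The part of these in the cyclin values was not tested.

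In pachytene against leptotene/zygotene, 3 of the 9 cyclins were called, where 18.0% of 13523 genes were. Ccna1 rose, and Ccna2 and Ccnd2 fell, where 8.70% of genes were called higher and 9.33% lower. Beyond the limit, 2 cyclins were higher and 6 lower, with 30.0% of all genes higher and 44.0% lower, and the median was -0.89 against -0.22. The split depended on the scaling. Both median scaling and scaling to the shared probe sets left Ccna1 and Ccnb2 as rises, with no fall. Quantile normalization, and likewise the log2 of signal plus floor, left Ccna1 as a rise and Ccnd2 as a fall. Deposited values added Ccnd3 to the falls, for 1 rise and 3 falls, and the mean over probe sets left the rise of Ccna1 alone. Over all genes the calls were 48.2% higher, against 66.7% under median scaling and 71.7% with scaling to the shared probe sets, and these settings moved the median of genes above the floor in both fractions by 0.31 and 0.36. With quantile normalization it moved by 0.18, with 59.4% of calls higher. Sertoli markers moved with the D-type cyclins: all 11 were lower in pachytene, 7 of them by at least 4-fold, with a median of -2.49. The 4 Leydig markers were lower too, 2 of them by at least 4-fold, with a median of -2.72, and 5 of 7 stromal markers were lower, with a median of -0.77. The Leydig sum, like the Ccnd2 signal, was lower at each later fraction. The stromal sum was lower at each as well, at 36550 in spermatogonia, 19043 in leptotene/zygotene and 12179 in pachytene. The Sertoli sum was 36830 in spermatogonia, 33248 in leptotene/zygotene and 8792 in pachytene. Its first step was small: of 11 Sertoli markers, 2 were lower and 1 higher beyond the limit in leptotene/zygotene against spermatogonia, with a median of -0.17. Of 6 macrophage and blood markers, 5 were higher, with a median of 0.84. All 11 pachytene markers rose. Of 10 spermatogonial markers measured, 9 were lower, with a median of -2.37. Their part in the cyclin differences was not tested.

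**Figure D3:**
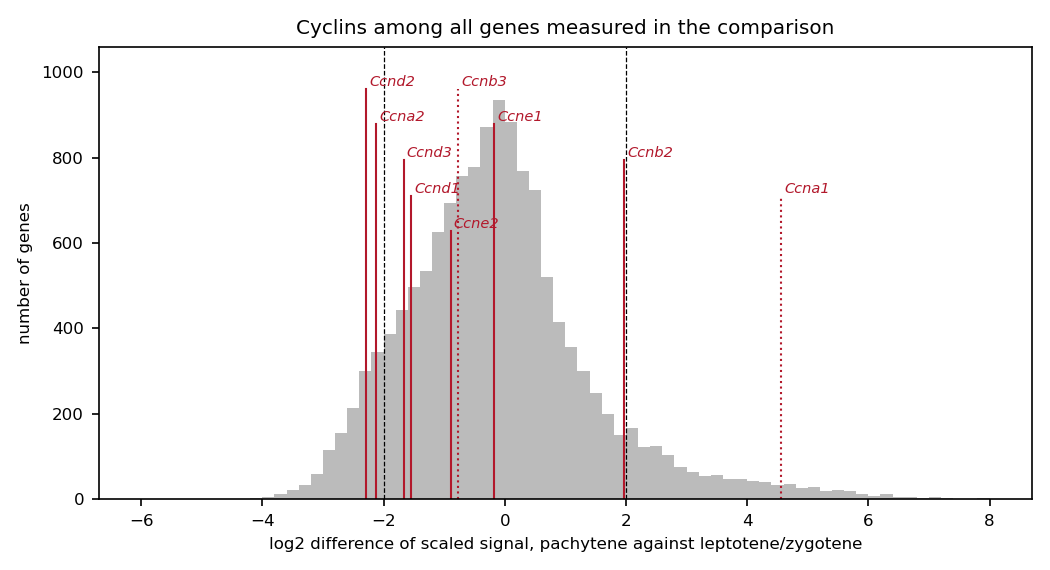
Number of genes by log2 difference in pachytene against leptotene/zygotene, with the 9 cyclins as red lines (dotted where the value is a bound) and the 4-fold thresholds as dashed lines. Ccna1 lies in the upper tail, at least 4.56, and 7 of the 9 cyclins lie below 0.

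In pachytene against spermatogonia, 4 of 8 cyclins were called, where 22.1% of 13705 genes were. Ccna1 and Ccnb2 rose, and Ccnd2 and Ccnd3 fell, where 10.0% of genes were called higher and 12.1% lower. Beyond the limit, 2 cyclins were higher and 4 lower, with 29.8% of all genes higher and 42.6% lower. These 4 calls held under each of the 9 other settings of scaling, floor and probe set choice. The probe set choice could not change the calls of Ccna1, Ccnb2 and Ccnd3, each with 1 probe set on the first design. For Ccnd3 the probe set on the second design gave -0.59, short of the threshold, beside -2.75 on the first. The median over the cyclins was -0.23 and that over all genes -0.22. The sign of the cyclin median turned with quantile normalization (0.17), median scaling (0.17) and scaling to the shared probe sets (0.14). Markers moved with these calls: all 11 pachytene markers rose, 10 of 11 Sertoli markers were lower (7 by at least 4-fold, median -2.46), as were 4 of 4 Leydig markers (3 by at least 4-fold, median -3.59) and 7 of 8 stromal markers (3 by at least 4-fold, median -1.42). Of 6 macrophage and blood markers 4 were higher, with a median of 1.21, and of 11 spermatogonial markers 9 were lower, with a median of -1.46. Their part in the cyclin differences was not tested. Over all genes 45.4% of the calls were higher, against 61.4% under median scaling and 63.9% under scaling to the shared probe sets.

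Ccnd3 and Ccne1 had usable probe sets on both designs and could be tested over 2 arrays per group with limma, on 1735 such genes, with array design as a block and Benjamini-Hochberg adjustment (two-sided). P-values there measure the spread between arrays and probe sets, which may be technical. Ccnd3 was lower in pachytene than in the somatic mix by a log2 difference of -1.87 (SE 0.53, limma adjusted p = 0.0437), with -2.71 and -1.02 on the designs. Of the 1735 genes, 20.1% passed in that comparison. Over the alternatives the limma adjusted p for Ccnd3 ranged between 0.0194 and 0.852. It did not pass with quantile normalization (limma adjusted p = 0.0946), with no filter on low signal (limma adjusted p = 0.132) or without the block. Nor did it pass without the first pachytene array (limma adjusted p = 0.196) or either somatic mix array (limma adjusted p = 0.171 and 0.0747). Pachytene against spermatogonia gave -1.67 for Ccnd3 (limma adjusted p = 0.0586) and pachytene against leptotene/zygotene -1.31 (limma adjusted p = 0.125). Both passed without the second pachytene array (limma adjusted p = 0.0220 and 0.0420). Ccne1 passed in none of the 6 comparisons, where the share of the 1735 genes that passed was 0.0576% between leptotene/zygotene and spermatogonia, 17.5% between pachytene and leptotene/zygotene, 21.2% between pachytene and spermatogonia, 1.04% between pachytene and whole testis and 3.23% between whole testis and the somatic mix. Its largest difference was -0.83, in pachytene against the somatic mix (SE 0.32, limma adjusted p = 0.106), and it passed there with no filter on low signal (limma adjusted p = 0.0465, in a range up to 0.885 over the alternatives).

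Whole testis at day 15 was compared with the somatic mix, and pachytene with both. In whole testis against the somatic mix, 1 of 8 cyclins was called, where 12.9% of 14989 genes were (7.22% higher and 5.70% lower). Ccna1 rose by at least 7.29-fold. With the floor at the 60th percentile the bound was 1.50 on the log2 scale and the call was lost. Ccnb2 was higher by 2.18-fold and Ccne2 by at least 2.94-fold, while Ccnd1 (-1.06), Ccnd2 (-1.20) and Ccnd3 (-1.07) were lower. Ccna2 (0.31) and Ccne1 (-0.50) lay within the error limit of 0.57. Thus 3 cyclins were higher and 3 lower beyond it, with 29.0% of all genes higher and 30.6% lower. The calls over all genes were 55.9% higher, and 65.9% as deposited. All 11 pachytene markers rose, 8 of 10 Sertoli and 4 of 4 Leydig markers were higher, and 7 of 7 markers of other organs and 6 of 6 of macrophages and blood were lower. Organ markers still summed to 5139 in whole testis, with Alb at 3907. Their sum was 879 in spermatogonia, 794 in leptotene/zygotene, 1145 in pachytene and 43924 in the somatic mix. The part of all these markers in the cyclin values was not tested.

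In pachytene against the somatic mix, 5 of 8 cyclins were called, where 23.8% of 15032 genes were (11.6% higher and 12.2% lower). Ccna1 rose by at least 23.6-fold and Ccnb2 by 4.98-fold. Ccnd1 fell by 5.30-fold, Ccnd2 by 5.90-fold and Ccnd3 by 6.53-fold. The Ccnb2 call was lost with quantile normalization (1.99), leaving 1 higher and 3 lower, the Ccnd1 call with median scaling (-1.85) and the Ccnd2 call with the mean over probe sets (-1.64). The Ccnd2 mean again includes the probe sets below the floor in all groups, with a difference of 0. Beyond the limit of 0.61, 3 cyclins were higher and 4 lower, with 28.1% of all genes higher and 41.7% lower. Of the calls over all genes 48.8% were higher, and 68.1% under median scaling. All 11 pachytene markers rose, while 6 of 7 organ markers and 6 of 9 stromal markers were lower. From which of the 11 tissues the D-type signals came was not measured.

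In pachytene against whole testis no cyclin of 8 was called, where 6.74% of 13845 genes were (2.35% higher and 4.39% lower). Ccna1 was 3.24-fold higher (1.70) and Ccnb2 2.29-fold higher (1.19), while Ccna2 (-0.97), Ccnd1 (-1.35), Ccnd2 (-1.36) and Ccnd3 (-1.63) were lower, so that 2 were higher and 4 lower beyond the limit of 0.46, with 25.7% of all genes higher and 38.2% lower. With median scaling Ccna1 passed the threshold (2.06), and 65.9% of the calls over all genes were then higher, against 34.8% in the scaling used here. That share was 51.5% with the shared probe sets and 45.3% as deposited. Lower in pachytene were also 8 of 10 Sertoli markers (median -1.21), 4 of 4 Leydig markers (median -2.32) and 5 of 7 stromal markers (median -1.06). So were 7 of 9 spermatogonial markers (median -1.21), while all 11 pachytene markers were higher (median 0.94). What part these markers had in the cyclin values was not tested. The Ccnd2 direction rested on the probe set: among 3 others, the differences were 0.77 and 0.56, and at least 1.51-fold higher in pachytene for the one at the floor in whole testis. In whole testis against the somatic mix those same 3 gave -3.31, -3.18 and at least 8.25-fold lower, where the probe set used gave -1.20. Whole testis is also the group with the 3′ to 5′ ratio of 4.33, and the part of this in the Ccnd2 values was not tested. No such turn occurred between fractions, where all probe sets of Ccnd2 above the floor agreed in sign.

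The partners and regulators of the cyclins were read from lists of known genes. In pachytene against leptotene/zygotene their counts stand beside the shares of all genes given above, 8.70% called higher and 9.33% lower, with 30.0% higher and 44.0% lower beyond the limit and a median of -0.22. Of 6 kinases and Cks subunits, none was called in that comparison, 2 were higher and 3 lower beyond the limit, near the shares of all genes, and the median was -0.53. Cdk1, the partner of B-type cyclins, had a signal of 1815 in pachytene and 1257 in leptotene/zygotene (0.53), and Cks2 had 9370 in pachytene and 4610 in leptotene/zygotene (1.02). Cdk4, the partner of D-type cyclins, had 349 in pachytene and 1094 in leptotene/zygotene (-1.65), and Cdk6 differed by -0.68. Cdk2 lay within the limit (-0.38). Cks1b was lower (-1.41).

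Of 7 inhibitors of these kinases, 1 rose and 0 fell, with 2 higher and 5 lower beyond the limit and a median of -0.53, where 8.70% of all genes rose and 44.0% were lower beyond the limit. Cdkn2c, which blocks Cdk4 and Cdk6, rose by 4.93-fold, to 2421 in pachytene against 491 in leptotene/zygotene.

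Among 11 genes of cyclin destruction, 1 rose and 1 fell, 4 were higher and 3 lower beyond the limit, and the median was -0.07. These counts were near the shares of all genes, 8.70% rising and 9.33% falling. Fzr1, an activator of the anaphase-promoting complex, the ubiquitin ligase that destroys A- and B-type cyclins, rose by 6.15-fold, with 1682 in pachytene and 274 in leptotene/zygotene. Fbxo5, an inhibitor of that complex, fell by at least 5.63-fold.

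Of 23 genes that regulate cyclin transcription, 0 rose and 3 fell, 5 were higher and 13 lower beyond the limit, and the median was -0.80. Over all genes 9.33% fell, 30.0% were higher and 44.0% lower beyond the limit, and the median was -0.22. E2f1, a factor of entry into DNA replication, fell by at least 4.91-fold. E2f6, a repressor of the same family, fell by 4.62-fold and Nfyb, a subunit of the factor that binds CCAAT boxes, by at least 5.51-fold. In leptotene/zygotene against spermatogonia none of the 23 was called, where 0.588% of all genes were, while 14 were higher and 2 lower, where 24.1% of all genes were higher and 22.2% lower. The median was 0.43, against 0.02 over all genes.

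Of 15 measured genes among 16 cyclins of other types, 1 rose and 3 fell in pachytene against leptotene/zygotene, 2 were higher and 9 lower beyond the limit, and the median was -0.98, where 8.70% of all genes rose, 9.33% fell, 30.0% were higher and 44.0% lower beyond the limit. Ccnk, a cyclin of the transcriptional kinases, rose by 5.09-fold. Ccng1 (-2.52), Ccng2 (-2.23) and Ccnjl (-2.66) fell. The pathway and marker lists were not recomputed under the other settings of scaling, floor and probe set choice. Whether calls near the threshold, such as those of Ccng2 and E2f6 (-2.21), hold under other scalings was not tested.

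The genes most like each cyclin were found by Euclidean distance of floored log2 signals, centred on the mean of the 5 groups, among 10267 genes of the same design. Over 5 arrays this likeness is a description and says nothing of shared control. Closest to Ccna1 were Tcte2 (distance 0.17) and Art5 (0.21). Closest to Ccnb2 were Kif3b (0.17), a kinesin motor gene, and Wdtc1 (0.20). Cdca7 (0.17) and Bik (0.24) were closest to Ccna2, and Kpna3 (0.17) and Ipp (0.31) to Ccne2. For the D-type cyclins these were Bach1 (0.16) and S100a10 (0.24) with Ccnd2, Gsta2 (0.19) and Fn1 (0.24), which encodes fibronectin, with Ccnd3, and Mitf (0.32) and Baiap2l1 (0.33) with Ccnd1. Ccnb3 and Ccne1 spanned less than 4-fold over the groups, and their nearest genes are not given.

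**Figure D4:**
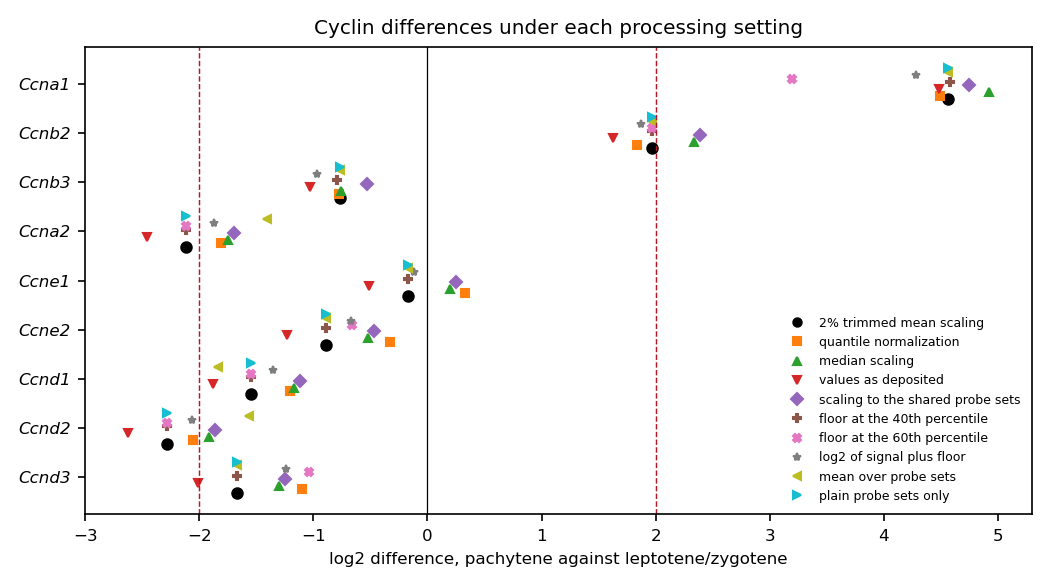
Log2 difference of each cyclin in pachytene against leptotene/zygotene under 10 settings, with the 4-fold thresholds as dashed lines. Ccna1 stays past the threshold in all of them (3.20 to 4.92), whereas Ccna2, Ccnb2, Ccnd2 and Ccnd3 lie on both sides of it.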

How the data were processed

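RNA of 5 groups was measured on 10 arrays of 2 designs. The authors deposited linear intensity values, 1 per probe set, made with GCOS version 1 per the submitters' processing notes. How background was corrected, to what target arrays were scaled and whether probe sets were detected is not stated there. Trimmed means (2% off each end) of the deposited arrays spanned 383 to 484 for design 1 and 63.4 to 148 for design 2, and each array was scaled to the mean of its design's trimmed means. Genes came from the platform annotation, updated through Entrez identifiers. Of 22690 probe sets on the first design, 20380 named 1 gene, 691 several and 1555 none. Of 22575 on the second, 14661 named 1, 245 several and 7605 none, and only those naming 1 gene were used. Signals were raised to a floor, on design 1 the 90th percentile of 71 chemosensory receptor probe sets (87.3). The second held 15 of these, fewer than 20, so the median signal (47.0) was used. Each gene took the probe set of highest mean log2 signal, with design 1 preferred wherever it exceeded the floor there. Levels of different probe sets are not comparable.

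Each such value rests on 1 array per group, so differences carry no p-value, and the number of arrays limits the precision. The error was estimated from 100 probe sets carried by both designs, as the root mean square of the gap between the designs' log2 differences over the square root of 2. The 95% limit multiplies it by 1.96. Genes above the floor on both designs were tested with limma 3.58.1 in R 4.3.3 on log2 scaled signals of all 10 arrays, blocked on replicate number, with calls under an adjusted p of 0.05. The replicate number equals the array design, so pairing comes from the design and not from shared animals. The limma code was tested on simulated data. Promoter windows are from RefSeq (GRCm38.p6). Settings varied were the scaling (median, quantile, shared probe sets, none), the floor (40th or 60th percentile, or added before the log2), the probe set (mean of all, or plain ones only) and the threshold (2-fold), and for limma no block, no filter and each array left out. Named were all members, the 2 nearest genes of members spanning 4-fold, and pathway genes past 4-fold in pachytene against leptotene/zygotene and the 6 kinases and Cks subunits, as partners of the cyclins. Members and lists were chosen with earlier results of these data known. Python 3.11.15, numpy 2.4.6, pandas 2.3.3 and matplotlib 3.10.9 were used.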

Additional observations from a re-analysis of the deposited data

How the results depend on the processing

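Of 49 cyclin differences not at the floor in both groups, 44 kept their sign under all 9 settings of scaling, floor and probe set choice. Of 433 recomputed differences, 307 moved by less than the error of the difference, and 9, belonging to 5 differences, turned their sign. Of the 5 only Ccnd2 in pachytene against whole testis lay beyond the error limit before the turn, and it stood at 0.080 with the mean over probe sets. The other 4 were Ccne1 in pachytene against leptotene/zygotene (0.20 to 0.33 under 3 scalings) and against whole testis (0.14 to 0.35 under the same 3), Ccne2 in pachytene against whole testis (0.0095 with quantile normalization) and Ccna2 in whole testis against the somatic mix (-0.15 with the mean over probe sets). A 2-fold threshold called 2 cyclins between leptotene/zygotene and spermatogonia, 6 between pachytene and leptotene/zygotene, 5 between pachytene and whole testis and 6 between whole testis and the somatic mix. Median scaling called 1 in pachytene against whole testis, the floor at the 60th percentile 0 in whole testis against the somatic mix (the higher floor shortens the Ccna1 bound), and the mean over probe sets 1 in pachytene against leptotene/zygotene. The causes of the other moves were not tested. Among scalings, the median over all genes above the floor in both groups moved furthest, by 0.43, under median scaling of pachytene against the somatic mix.

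In limma over genes on both designs, the replicate block called 1 gene between leptotene/zygotene and spermatogonia, then 304, 367, 18 and 348 for pachytene against leptotene/zygotene, spermatogonia, whole testis and the somatic mix, and 56 for whole testis against the somatic mix. With no replicate block these were 0, then 0, 0, 0 and 5, and 0, with 10, then 165, 200, 56 and 193, and 87 genes at an unadjusted p under 0.05. Ccnd3 in pachytene against the somatic mix then had a limma adjusted p = 0.852, within a range of 0.0194 to 0.852 over the alternatives. With quantile normalization limma called 137 genes in pachytene against leptotene/zygotene, 226 against spermatogonia and 0 against whole testis (205 at an unadjusted p under 0.05). With no filter it called 0 in leptotene/zygotene against spermatogonia (118 at an unadjusted p under 0.05) and 29 in pachytene against whole testis. Leaving out each array in turn gave 0 to 0 genes in leptotene/zygotene against spermatogonia (21 to 40 at an unadjusted p under 0.05), 0 to 287 for pachytene against leptotene/zygotene (0 without either leptotene/zygotene array, with 341 and 409 at an unadjusted p under 0.05), 14 to 399 in pachytene against spermatogonia, 0 to 0 against whole testis (197 to 419 at an unadjusted p under 0.05), 154 to 408 against the somatic mix and 0 to 20 in whole testis against the somatic mix (0 without either whole testis array, with 211 and 224 at an unadjusted p under 0.05). The array left alone in its group was taken to vary like the other groups.

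Signals near the floor limit what can be said of Ccnb3, Ccne1 and Ccne2, and of Ccnd3 in pachytene. Having 1 array per group and design limits every difference.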
